A study of Mus musculus with 24 samples.

Results

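Innate sensors of nucleic acids and the adaptors and kinase that pass on their signal were followed as a group of 10 genes, taken by symbol from the 15738 named genes of the table. The group comprised the RNA helicase sensors Ddx58 (RIG-I), Ifih1 (MDA5) and Dhx58 (LGP2), the double-stranded RNA and Z-form nucleic acid binders Eif2ak2 (PKR), Zbp1 and Adar, the DNA sensor Cgas, the adaptors Mavs and Sting1, and the kinase Tbk1. All 10 had a row under these symbols and all 10 were among the 13527 genes tested, although Zbp1 passed the low-count filter only through the groups in which it was high.

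RNA was sequenced from cultured B16F10 cells, a mouse melanoma line, in 4 genotypes: a control knockout (genotype label WT), an Rnf31 knockout (koRnf31), an Atg5 knockout (koAtg5) and a knockout of both genes (koRnf31-koAtg5). Rnf31 (HOIP) joins linear ubiquitin chains at receptor complexes such as that of TNF, and Atg5 is needed to build autophagosomes. Each line received vehicle or TNFα at 2 ng/ml for 24 h, with 3 libraries per group and 24 in all, so that 8 groups were compared. All groups share the B16F10 background. The sources used here do not give the edit in the control line, the cut sites in Rnf31 and Atg5, or whether the lines are clones or pools. An effect of the lost gene therefore cannot be told apart from other differences between the lines. The replicates are labelled biological, but whether they came from separate cultures is not stated, so a p-value here reflects only how much these libraries vary. The labels give no batch or date.

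Cytosolic RNA of viral or cellular origin is bound by Ddx58 and Ifih1, which engage Mavs on mitochondria, while Cgas responds to cytosolic DNA by making a cyclic dinucleotide that binds Sting1 at the endoplasmic reticulum. Both routes converge on Tbk1, which phosphorylates the interferon regulatory factor Irf3, and several of the sensors are themselves interferon-stimulated genes. Eif2ak2 halts translation on double-stranded RNA, Zbp1 links Z-form nucleic acid to cell death kinases, and Adar edits double-stranded RNA and limits its detection.

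Library totals were 19425795 to 33385502 counts. Control vehicle replicate 2 stood apart from replicates 1 and 3 of its group, with a chi-square over degrees of freedom of 32.1 and 20.2 between their counts, where all other pairs within a group reached 9.04 at most. Results that rest on control vehicle libraries are therefore given below also without that library where the edgeR call moved. Some are also given where only the size moved. Against control vehicle, the targeted transcript Atg5 was lower in the Atg5 knockout (log2 fold change -1.30) and in the double knockout (-1.11). Rnf31 was lower in the Rnf31 knockout (-0.28) and in the double knockout (-0.57). In the Rnf31 knockout, Atg5, which is not targeted there, was lower by the same size (-0.28), and 21.5% of all genes were called lower. The fall of Rnf31 in that line therefore does not single out the target. In the Atg5 knockout Rnf31 was higher (0.43). All 7 melanocyte lineage markers were detected, with a summed level of 17800 to 18200 CPM (counts scaled to a common library total with TMM factors) in Atg5 knockout vehicle libraries, 20200 to 20800 in double knockout vehicle libraries and 21200 to 21800 in control vehicle libraries. Of the fibroblast markers, 3 of 5 had a row, with summed levels of 4.66 to 12.6 CPM over the libraries. The endothelial marker Pecam1 reached at most 0.368 CPM, and the 5 leukocyte and 3 keratinocyte markers had no row and were not analysed here. The part of other cells in the results was not tested. In bulk RNA, fewer cells that express a gene and less RNA of it per cell cannot be told apart.

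Promoter sequences of the members are shown first, as context for the values that follow. RefSeq promoter windows (GRCm38.p6, 250 bases before to 50 after each annotated start) were used for 7 of the 10 members, in 9 windows. They were searched on both strands for GAAA, any 2 bases and GAAA, the core of the interferon-stimulated response element (ISRE), for TTCNNNGAA, the gamma-activated sequence (GAS), for GGGA, any 2 bases and TTCC, an NF-kB site, and for AANNGAAA, a shorter interferon regulatory factor core that lies within every ISRE match. The 4 patterns occur in 3.44%, 8.30%, 1.47% and 23.9% of all 32851 windows. The following stretches of 30 bases, 5' to 3' on the gene's strand, hold the matches to ISRE or the shorter core in capitals.
Ddx58, chr4:40239804-40239833, minus strand: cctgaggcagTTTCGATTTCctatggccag
Ifih1, chr2:62646209-62646238, minus strand: ctggagaagagAATCGAAACAGAAAccgat
Eif2ak2, chr17:78882535-78882564, minus strand: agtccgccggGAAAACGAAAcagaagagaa
Adar, chr3:89730736-89730765, plus strand: ccttttcaaggAAACGAAAgtgaactctgg

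With the start counted as base 0, the ISRE match of Ddx58 ran from base 2 to 11 and read in the opposite orientation, that of Ifih1 ran from base 32 to 41, and that of Eif2ak2 from base 18 to 27. Adar had 3 windows, and only the third held a match, to the shorter core from base 29 to 36 and to GAS from base 22 to 30, which is not in capitals above. Eif2ak2 held a GAS match from base -178 to -170. None of the 4 patterns was found in the windows of Cgas, Mavs and Tbk1. Among these, Tbk1 was called higher than control with vehicle in the Atg5 knockout (log2 fold change 0.35) and in the double knockout (0.21). For comparison, 160 bases upstream (base -200 to -41) follow for Ddx58, with its second short core in capitals at base -59 to -52, and for Ifih1, Cgas and Mavs, which have no match there and no capitals. All matches of Ifih1 lie past its start.
Ddx58, chr4:40239866-40240025, minus strand: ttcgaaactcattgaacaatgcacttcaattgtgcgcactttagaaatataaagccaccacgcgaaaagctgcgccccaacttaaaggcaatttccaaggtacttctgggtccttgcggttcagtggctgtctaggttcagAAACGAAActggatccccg
Ifih1, chr2:62646296-62646455, minus strand: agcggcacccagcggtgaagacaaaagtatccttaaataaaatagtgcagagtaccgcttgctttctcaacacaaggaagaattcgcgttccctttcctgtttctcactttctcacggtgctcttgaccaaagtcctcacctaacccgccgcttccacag
Cgas, chr9:78443278-78443437, minus strand: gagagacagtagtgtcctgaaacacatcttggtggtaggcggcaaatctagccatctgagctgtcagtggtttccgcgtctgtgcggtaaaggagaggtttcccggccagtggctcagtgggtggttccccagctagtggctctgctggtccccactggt
Mavs, chr2:131233863-131234022, plus strand: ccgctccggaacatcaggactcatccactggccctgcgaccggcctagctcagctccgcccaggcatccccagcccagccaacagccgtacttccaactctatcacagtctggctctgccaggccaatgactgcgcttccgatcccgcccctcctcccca
A match is a run of letters and not a measured binding site, and no protein binding was measured in these libraries.

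Without TNFα, cells lacking Atg5 held several-fold more transcript of the RNA sensors than control cells. Of the 10 members, 7 rose, 2 fell and 1 was not called in the Atg5 knockout against control with vehicle (edgeR quasi-likelihood test, adjusted p under 0.05), where 62.0% of all tested genes were called, 31.3% higher and 30.7% lower. With so many genes called, the size of a change separates the members better than the call. The members higher by more than 2-fold numbered 6, against 9.72% of all genes. The median log2 fold change was 1.26 over the 10 members, 1.08 over the 9 without Zbp1, and 0.01 over all genes.

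**Figure D1:**
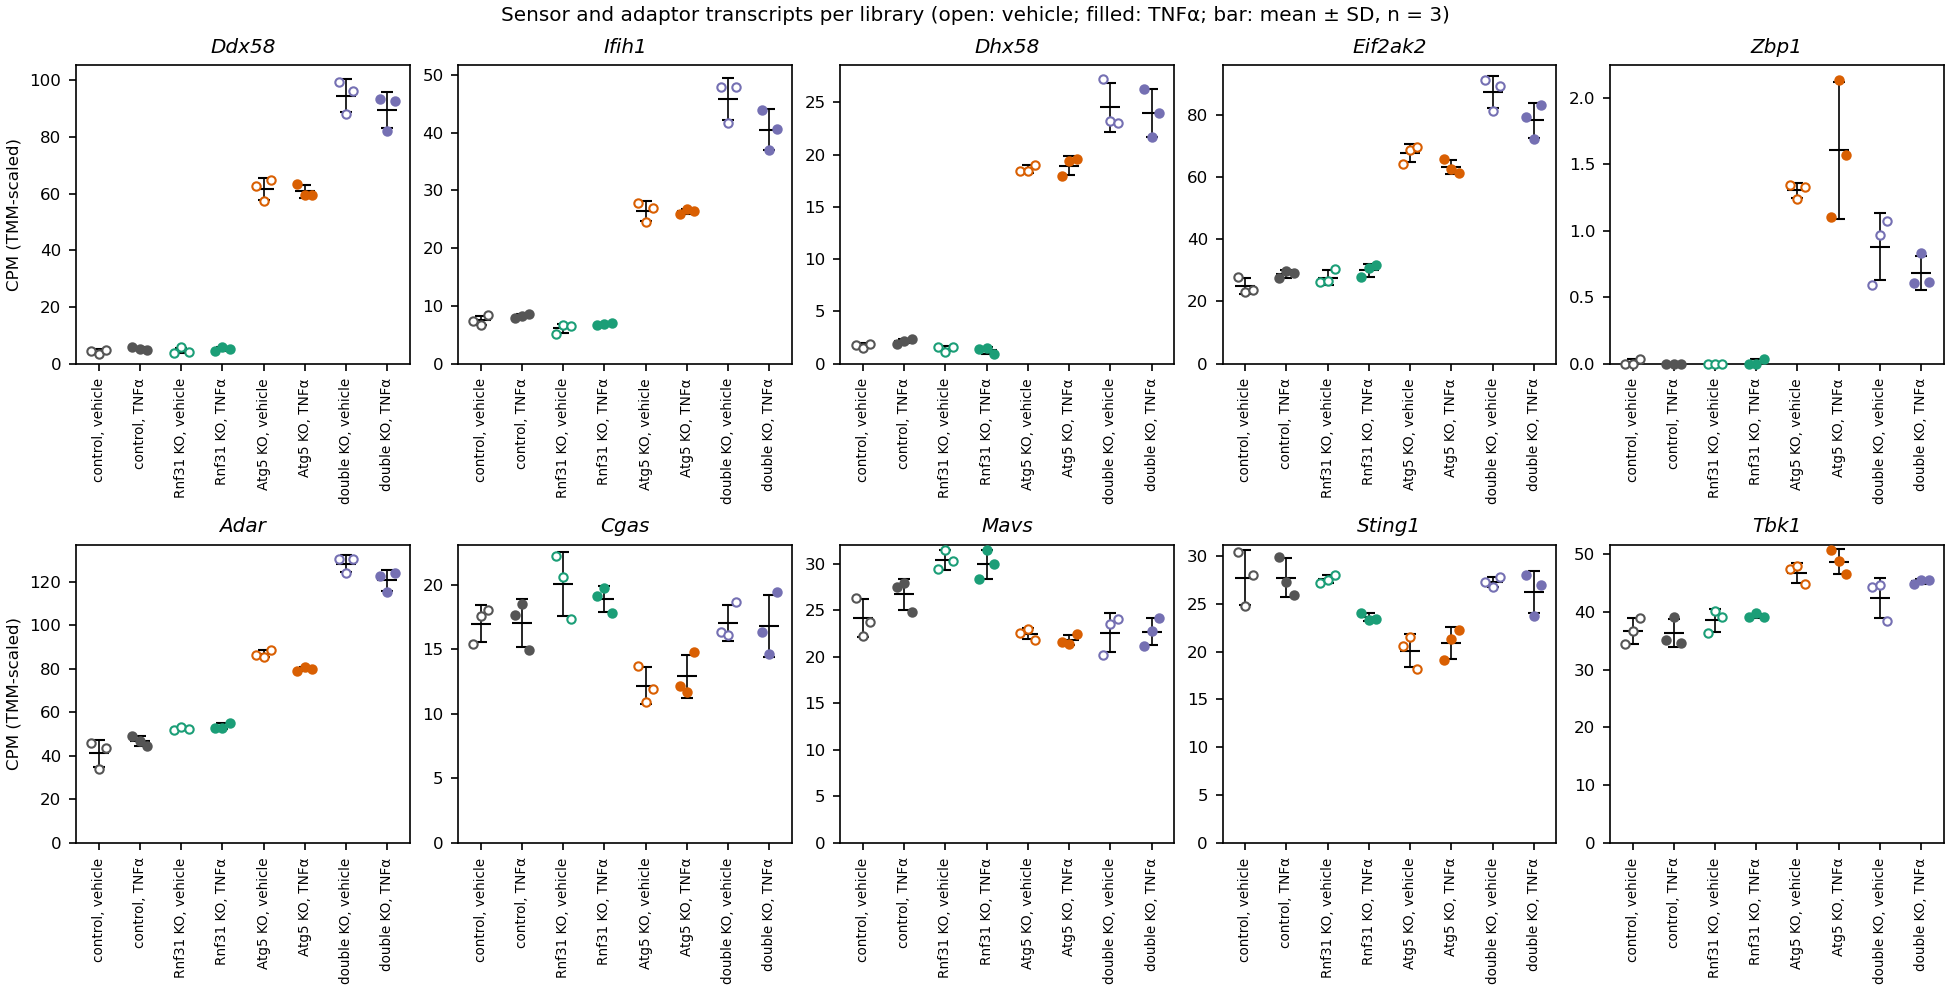
Level of each of the 10 genes in every library (CPM, linear axis from 0), for 4 genotypes with vehicle (open) or TNFα (filled); bars are the mean ± SD of 3 libraries. Ddx58, Ifih1, Dhx58, Eif2ak2, Zbp1 and Adar stand higher in all Atg5 knockout and double knockout libraries than in any control or Rnf31 knockout library, while Cgas, Mavs, Sting1 and Tbk1 lie between 10.9 and 50.7 CPM in all libraries.

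Ddx58 (GRCm38 chromosome 4, 40203773 to 40239828), the sensor of short RNA with a 5' triphosphate, was at 4.51, 3.40 and 4.86 CPM in the control vehicle libraries and at 62.5, 57.3 and 64.9 CPM in the Atg5 knockout vehicle libraries. The groups were far apart, with a log2 fold change ± SE of 3.86 ± 0.11 (14.6-fold, edgeR adjusted p = 4.7e-21). This was rank 114 of the 13527 tested genes from the highest log2 fold change. In the double knockout it was at 99.3, 88.1 and 96.3 CPM, 22.4-fold above control (4.48 ± 0.11), and every library was above every Atg5 knockout library.

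Ifih1 (chromosome 2, 62595798 to 62646255), the sensor of long double-stranded RNA, was at 7.34, 6.70 and 8.38 CPM in control, 27.8, 24.6 and 26.9 CPM in the Atg5 knockout and 48.0, 41.6 and 47.9 CPM in the double knockout, all with vehicle. The 3 groups did not overlap. The log2 fold change against control was 1.83 ± 0.09 (3.55-fold, edgeR adjusted p = 9.1e-16) in the Atg5 knockout and 2.62 ± 0.09 (6.15-fold) in the double knockout. Dhx58 (chromosome 11, 100694884 to 100704271), which lacks the signalling domains of the other 2 helicases and modulates them, was at 1.82, 1.49 and 1.88 CPM in control. It was at 18.4, 18.4 and 19.0 CPM in the Atg5 knockout and 27.2, 23.2 and 23.1 CPM in the double knockout, again without overlap. Its log2 fold change was 3.43 ± 0.13 (10.8-fold) and 3.83 ± 0.13 (14.2-fold). Dhx58 shares exons with the antisense gene Dhx58os, and since strandedness is not given in the sources used here, their reads cannot be told apart.

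Eif2ak2 (chromosome 17, 78852564 to 78882573), the kinase that phosphorylates the translation factor eIF2 alpha, measured 27.9, 23.1 and 23.8 CPM in control vehicle libraries and 64.4, 68.9 and 69.8 CPM in those of the Atg5 knockout. Double knockout libraries held 91.2, 81.4 and 89.4 CPM. The ranges did not overlap, and the log2 fold change was 1.44 ± 0.07 (2.71-fold) in the Atg5 knockout and 1.81 ± 0.07 (3.50-fold) in the double knockout. Its exons overlap those of Gm26637 and n-R5s29 on the other strand. Adar (chromosome 3, 89715022 to 89753446) was at 45.9, 34.0 and 43.5 CPM in control, where replicate 2 was the low library. It was at 86.5, 85.5 and 88.6 CPM in the Atg5 knockout and 130.4, 124 and 131 CPM in the double knockout. The log2 fold change was 1.08 ± 0.07 (2.11-fold) and 1.64 ± 0.07 (3.12-fold), and 0.95 and 1.52 without control vehicle replicate 2. Without that library each of the 9 calls of the Atg5 knockout and the 7 of the double knockout against control held, with Ddx58 at 3.71 and 4.33. Gene-level counts do not separate the interferon-induced from the constitutive Adar transcript. Chrnb2, which overlaps Adar on the other strand, measured 3.15 ± 0.613 CPM in control against 3.35 ± 0.316 CPM in Atg5 knockout vehicle libraries (mean ± SD, n = 3).

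Zbp1 (chromosome 2, 173206612 to 173218923) was close to silent in control and Rnf31 knockout cells. Its counts summed to 1 over the 3 control vehicle libraries, 0 over control with TNFα, 0 over the Rnf31 knockout with vehicle and 1 over the Rnf31 knockout with TNFα. The Atg5 knockout held 116 counts with vehicle (1.35, 1.24 and 1.33 CPM) and the double knockout 74 (0.593, 0.967 and 1.07 CPM). From these sums Zbp1 was 114-fold higher in the Atg5 knockout (95% counting interval 20.1 to 4540) and 77.1-fold higher in the double knockout (13.4 to 3080). These intervals cover counting error only. With TNFα, against 0 counts in control set at a floor of 3 over the group, it was at least 43.8-fold higher in the Atg5 knockout and at least 17.9-fold higher in the double knockout.

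The DNA-sensing arm and the adaptors did not follow the RNA sensors. Cgas (chromosome 9, 78430526 to 78443237) measured 15.4, 17.6 and 18.1 CPM in control vehicle libraries and 13.7, 10.9 and 11.9 CPM in those of the Atg5 knockout. The groups were apart and the knockout was lower (-0.48 ± 0.12, 0.719-fold, edgeR adjusted p = 0.00083). Sting1, the receptor of the Cgas product, measured 30.4, 24.7 and 28.0 CPM against 20.6, 21.6 and 18.2 CPM in the same libraries. It was lower too (-0.46 ± 0.08, 0.727-fold, edgeR adjusted p = 1.3e-05), without overlap. In the double knockout neither differed from control by the test. Cgas was at 16.4, 16.1 and 18.7 CPM (0.01 ± 0.11, 95% interval -0.23 to 0.24) and Sting1 at 27.3, 26.8 and 27.8 CPM (-0.02 ± 0.08, -0.18 to 0.14). Exons of Cgas overlap those of the pseudogene Gm8093.

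Mavs (chromosome 2, 131234063 to 131248025) was at 26.3, 22.3 and 23.8 CPM in control, 22.6, 23.0 and 21.9 CPM in the Atg5 knockout and 20.2, 23.6 and 24.0 CPM in the double knockout with vehicle, and these ranges overlapped. The differences were -0.10 ± 0.07 (95% interval -0.25 to 0.05) and -0.09 ± 0.07 (-0.25 to 0.06), neither of them called. Tbk1 (chromosome 10, 121546455 to 121586787) measured 34.5, 36.8 and 38.9 CPM in control and was slightly higher in the Atg5 knockout, at 47.4, 47.9 and 44.8 CPM (0.35 ± 0.06, 1.27-fold, edgeR adjusted p = 1.9e-05). In the double knockout it was at 44.2, 44.6 and 38.4 CPM, which overlapped control, and the call was kept at a smaller size (0.21 ± 0.06, 1.16-fold, edgeR adjusted p = 0.0059). Over the double knockout as a whole, 7 members were higher, 0 lower and 3 not called against control, where 52.4% of all genes were called, 25.3% higher and 27.2% lower. More than 2-fold higher were 6 members, against 4.86% of all genes. The Atg5 knockout and the double knockout share the control libraries, so their values against control stand side by side and are not independent.

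**Figure D2:**
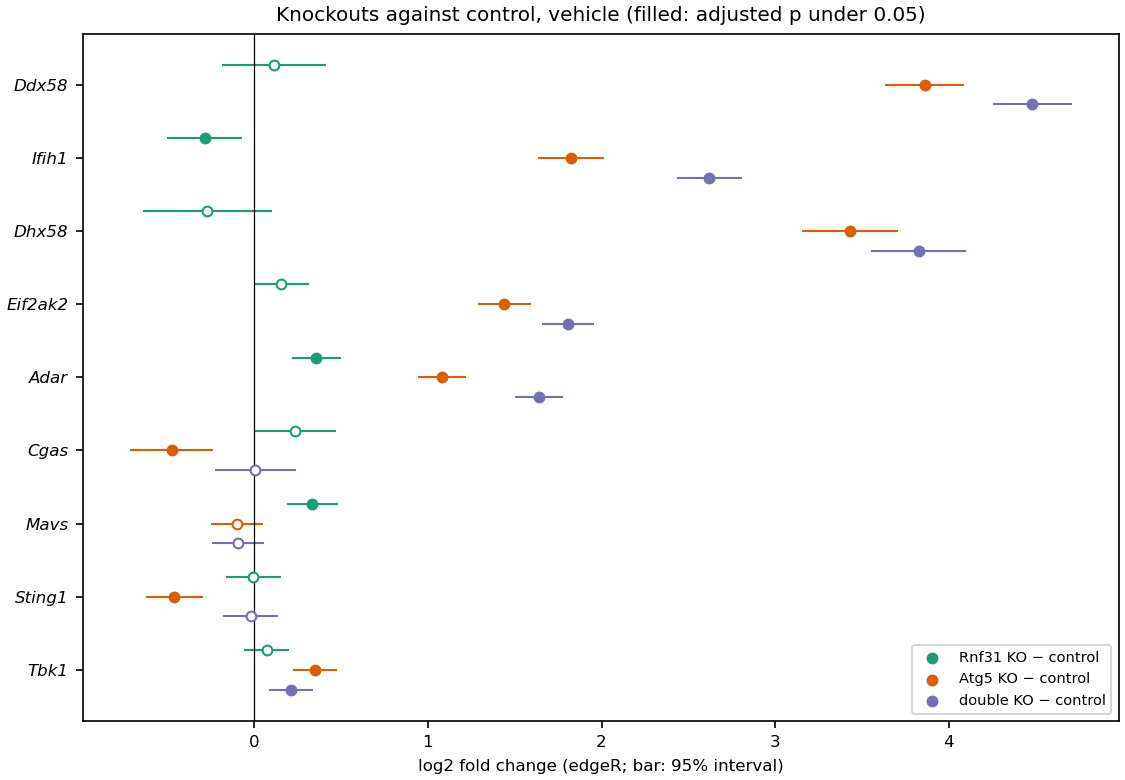
Log2 fold change of 9 members against control with vehicle in the Rnf31, Atg5 and double knockouts (points; bars are 95% intervals; filled where the edgeR adjusted p was under 0.05); Zbp1 is left out because its control counts are near 0. The RNA sensors lie at 1.83 to 4.48 in the Atg5 and double knockouts, whereas Cgas and Sting1 lie at -0.48 and -0.46 in the Atg5 knockout and at 0.01 and -0.02 in the double knockout.

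Set directly against each other with vehicle, the double knockout held more of 7 members than the Atg5 knockout, less of 0, and 3 were not called, where 38.1% of all genes were called, 18.2% higher and 19.8% lower. The log2 differences ± SE were 0.79 ± 0.08 for Ifih1 (1.73-fold), 0.62 ± 0.08 for Ddx58 (1.54-fold), 0.56 ± 0.06 for Adar, 0.40 ± 0.10 for Dhx58 and 0.37 ± 0.07 for Eif2ak2. Cgas (0.48 ± 0.12) and Sting1 (0.44 ± 0.08) were higher as well, and the edgeR adjusted p of these 7 ran from 8.1e-09 to 0.0029. Libraries of the 2 lines did not overlap for any of the 7, nor for Tbk1 and Zbp1, which were lower in the double knockout without a call. The share of all genes whose libraries were apart was not counted, here or in the other comparisons. Such gaps are therefore a description and do not set the members apart from other genes. Tbk1 differed by -0.14 ± 0.06 (95% interval -0.27 to -0.01, edgeR adjusted p = 0.077) and Mavs by 0.01 ± 0.07 (-0.15 to 0.16). Zbp1 went the other way in its counts, with 0.676 times the Atg5 knockout level (95% counting interval 0.498 to 0.913), but edgeR, which also takes in the spread between libraries, did not call it (adjusted p = 0.24). With TNFα the ratio was 0.409 (0.287 to 0.575).

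In the Rnf31 knockout the level of most members was near control. With vehicle, 2 of 10 members rose, 1 fell and 7 had no call, where 45.6% of all genes were called, 24.1% higher and 21.5% lower. Adar was at 52.1, 53.3 and 52.5 CPM in the Rnf31 knockout, above every control library, a difference of 0.36 ± 0.07 (1.28-fold, edgeR adjusted p = 0.00012), or 0.23 (adjusted p = 0.00075) without control vehicle replicate 2 and 0.19 (adjusted p = 0.0105) with a correction for transcript length. Mavs was at 29.4, 31.5 and 30.3 CPM, also above every control library (0.33 ± 0.07, 1.26-fold, edgeR adjusted p = 0.00043). Ifih1 was at 5.16, 6.67 and 6.43 CPM, below the control libraries (-0.28 ± 0.11, edgeR adjusted p = 0.029), or -0.43 (adjusted p = 0.0017) with that correction. The Ifih1 call did not hold when control vehicle replicate 3 (-0.20, adjusted p = 0.167) or Rnf31 knockout vehicle replicate 1 (-0.20, adjusted p = 0.153) was left out, nor when only these 2 groups were fitted (-0.30, adjusted p = 0.106). Ddx58 was at 3.87, 5.73 and 4.17 CPM and overlapped control (0.11 ± 0.15, 95% interval -0.19 to 0.42), and Dhx58 differed by -0.27 ± 0.18 (-0.64 to 0.10). Among the others, Cgas differed by 0.24 ± 0.11 and was called without Rnf31 knockout vehicle replicate 3 (0.33, adjusted p = 0.0335), and Eif2ak2 by 0.16 ± 0.08, called without control vehicle replicate 1 (0.25, adjusted p = 0.0118). Sting1 and Tbk1 lay within 0.07 of control.

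The double knockout with vehicle was tested for a departure from the sum of the 2 single knockouts on the log2 scale. The test called 4 members above the sum and 1 below it, where 40.7% of all genes were called, 18.9% higher and 21.8% lower. The share of members called is near that of all genes. Ifih1 departed most (1.08 ± 0.13, edgeR adjusted p = 3.8e-07), as it was lower in the Rnf31 knockout and yet higher in the double than in the Atg5 knockout. Dhx58 stood 0.67 ± 0.21 above the sum (edgeR adjusted p = 0.011), Sting1 0.44 ± 0.11 (adjusted p = 0.0021) and Ddx58 0.50 ± 0.17 (adjusted p = 0.018). Mavs stood 0.33 below it (-0.33 ± 0.10, adjusted p = 0.012). The Ddx58 departure was no longer called without control vehicle replicate 1 (adjusted p = 0.0521) or 3 (0.0799) or without Rnf31 knockout vehicle replicate 1 (0.0549) or 3 (0.0579). The Mavs departure was lost without Rnf31 knockout vehicle replicate 2 (adjusted p = 0.0545) or double knockout vehicle replicate 1 (0.0558). Adar stood at 0.21 ± 0.09 (adjusted p = 0.082) and Eif2ak2 at 0.21 ± 0.10 (adjusted p = 0.10), neither of them called. Both were called without control vehicle replicate 2, Adar at 0.33 (adjusted p = 0.00025) and Eif2ak2 at 0.27 (adjusted p = 0.047), and with the length correction, Adar at 0.37 (adjusted p = 0.0005) and Eif2ak2 at 0.29 (adjusted p = 0.0177). Both were also called without double knockout vehicle replicate 2 (adjusted p = 0.0498 and 0.0372), and Eif2ak2 without Rnf31 knockout vehicle replicate 3 (0.0241). Tbk1 (-0.21 ± 0.09, adjusted p = 0.058) was called with a replicate block (0.0469), without control vehicle replicate 3 (0.033) and without double knockout vehicle replicate 1 (0.0483).

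Compared per kilobase of the longest annotated transcript, the order of the genes in the lines without Atg5 differed from that in control cells. In control vehicle libraries Tbk1 (12.1 ± 0.73 CPM per kb, mean ± SD, n = 3) and Sting1 (12.1 ± 1.2) led with overlapping ranges, followed by Mavs (7.89 ± 0.67), Adar (6.96 ± 1.1) and Eif2ak2 (5.78 ± 0.60), of which neighbours overlapped. Cgas stood apart below them at 4.20 ± 0.35 CPM per kb. Ifih1 (1.37 ± 0.16) and Ddx58 (1.10 ± 0.20) overlapped each other, and Dhx58 (0.717 ± 0.086) and Zbp1 were lowest, each apart from the next. In the Atg5 knockout with vehicle, Ddx58 was first at 15.9 ± 1.0 CPM per kb, with Eif2ak2 (15.7 ± 0.67), Tbk1 (15.4 ± 0.56) and Adar (14.7 ± 0.26) following in overlapping neighbour pairs. Sting1 (8.75 ± 0.76), Dhx58 (7.71 ± 0.15), Mavs (7.36 ± 0.19), Ifih1 (4.83 ± 0.30) and Cgas (3.01 ± 0.35) came next, each apart from its neighbour. In the double knockout with vehicle Ddx58 reached 24.4 ± 1.5 CPM per kb and stood apart from Adar (21.7 ± 0.65) and Eif2ak2 (20.2 ± 1.2), which overlapped. The relative order rests on the annotated lengths, since the transcripts in use were not measured.

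**Figure D3:**
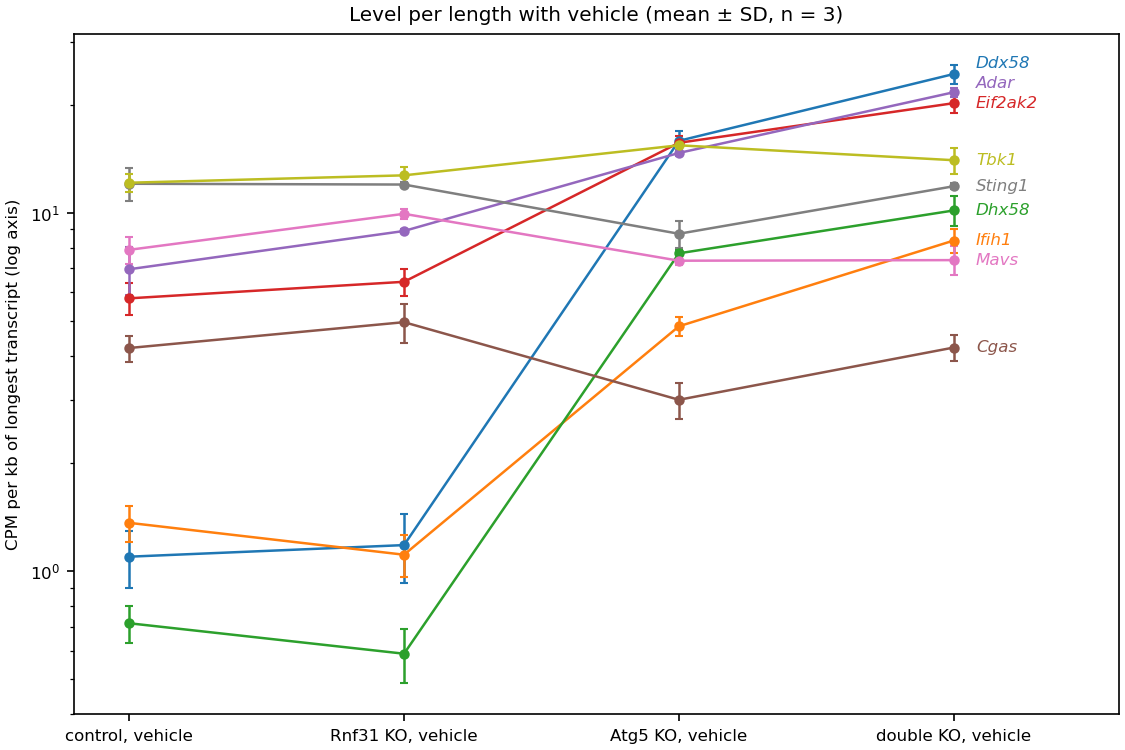
Level per kilobase of the longest annotated transcript (CPM per kb, log axis; mean ± SD of 3 libraries) of 9 members in the 4 genotypes with vehicle; Zbp1, at 0 or 1 count in the control group, is left out. Ddx58, Ifih1 and Dhx58 are the lowest 3 genes drawn in control and Rnf31 knockout cells, and Ddx58 is the highest in the Atg5 and double knockouts.

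TNFα for 24 h gave no call for any member in any genotype, where at most 1.17% of all genes were called. A count of 0 of 10 is near these shares, so it does not set the members apart from other genes. In control cells 0 of 10 members were called by edgeR, where 0.0961% of all genes were called, 3 members had an unadjusted p under 0.05, and DESeq2 called 0 of the 6 members to which it gave an adjusted p. In the Rnf31 knockout 0 were called (1.17% of all genes, 1 member at an unadjusted p under 0.05, DESeq2 0 of 10). In the Atg5 knockout 0 were called (0% of all genes, 0 members at an unadjusted p under 0.05, DESeq2 0 of 4), and in the double knockout 0 (0.133% of all genes, 2 members at an unadjusted p under 0.05, DESeq2 0 of 10).

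Intervals show what sizes of response the libraries allow. In control cells Ddx58 went from 4.51, 3.40 and 4.86 CPM with vehicle to 6.02, 5.22 and 4.84 CPM with TNFα, and these ranges overlapped slightly (0.34 ± 0.14, 95% interval 0.04 to 0.63, edgeR adjusted p = 0.18). Dhx58 was at 1.93, 2.19 and 2.35 CPM with TNFα, the only member above all 3 control vehicle libraries (0.33 ± 0.17, -0.02 to 0.68). Eif2ak2 (0.21 ± 0.08, edgeR adjusted p = 0.13) and Adar (0.19 ± 0.07, adjusted p = 0.13) were called, among the alternatives run, only without control vehicle replicate 1, at 0.30 (adjusted p = 0.0159) and 0.28 (adjusted p = 0.0123). Without control vehicle replicate 2 these 4 differences were 0.19 for Ddx58, 0.23 for Dhx58, 0.15 (adjusted p = 0.728) for Eif2ak2 and 0.07 (adjusted p = 0.806) for Adar. In the Rnf31 knockout the member with the smallest p was Sting1, at 27.2, 27.5 and 28.0 CPM with vehicle and 24.1, 23.3 and 23.4 CPM with TNFα. Its ranges did not overlap, yet the adjusted p was 0.20 (edgeR, -0.23 ± 0.08, 95% interval -0.39 to -0.06).

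In the 2 lines without Atg5 no raised member passed the test. Ddx58 was at 63.3, 59.5 and 59.5 CPM in the Atg5 knockout with TNFα (-0.02 ± 0.08, 95% interval -0.19 to 0.15) and at 93.5, 82.1 and 92.7 CPM in the double knockout (-0.08 ± 0.08, -0.25 to 0.09). Ifih1 was at 26.0, 26.8 and 26.4 CPM (0.00 ± 0.08, -0.17 to 0.17) and at 44.0, 36.9 and 40.7 CPM (-0.18 ± 0.08, -0.34 to -0.01). Both lines overlapped their vehicle libraries for these genes. Zbp1 had 131 counts in the Atg5 knockout with TNFα, 1.28 times the vehicle level (95% counting interval 0.988 to 1.66), and 47 in the double knockout, 0.774 times (0.525 to 1.13). Adar was the only member whose Atg5 knockout libraries with TNFα, at 79.1, 80.7 and 79.95 CPM, lay below all those with vehicle (-0.12 ± 0.06, 95% interval -0.25 to 0.01). Tbk1 in the double knockout with TNFα, at 44.7, 45.5 and 45.5 CPM, lay just above its vehicle libraries (0.09 ± 0.06, -0.04 to 0.22).

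**Figure D4:**
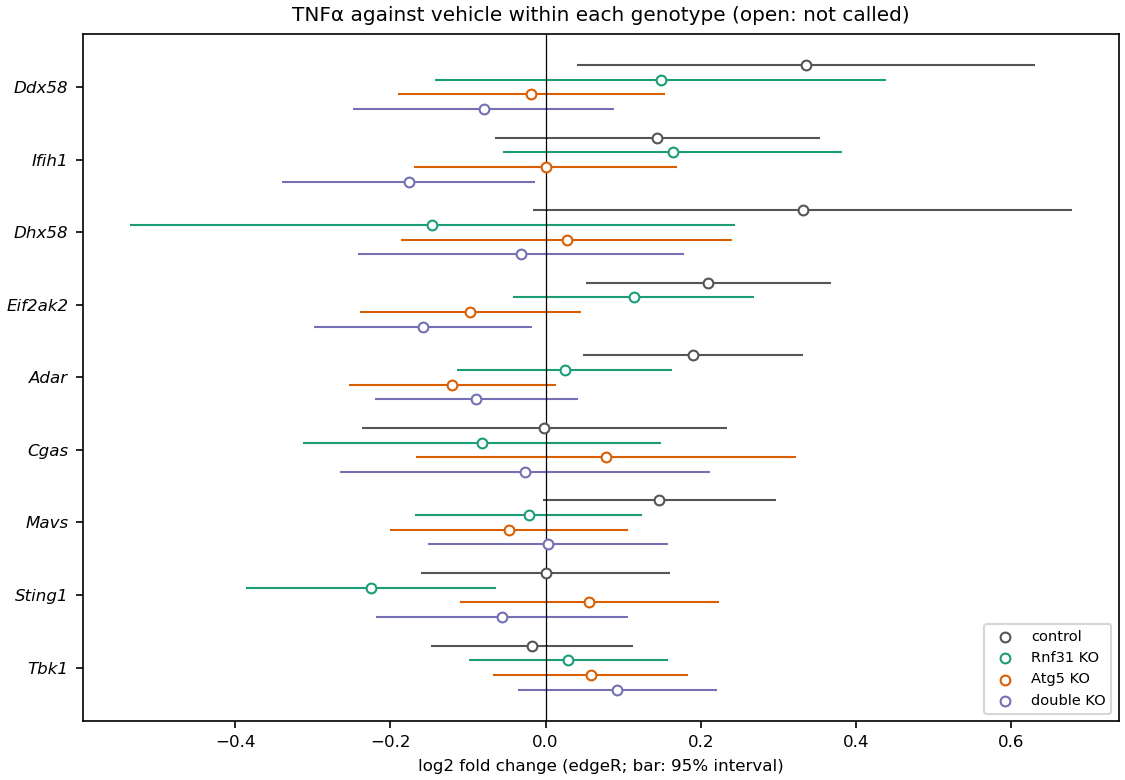
Log2 fold change of TNFα against vehicle within each of the 4 genotypes for 9 members (open points, none called; bars are 95% intervals); Zbp1 is left out because of its low counts. All points lie between -0.23 and 0.34.

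The difference of the TNFα response between genotypes was tested directly. Against the control response, 0 members were called for the Rnf31 knockout (edgeR, 0.00739% of all genes, 0 members at an unadjusted p under 0.05, DESeq2 0 of 9) and 0 for the double knockout (1.15% of all genes, 4 members at an unadjusted p under 0.05, DESeq2 2 of 8, which were Adar and Eif2ak2). In the double knockout edgeR gave -0.28 for Adar and -0.37 for Eif2ak2. Without control vehicle replicate 2 these were -0.155 (edgeR adjusted p = 0.326) and -0.31 (adjusted p = 0.218). For the Atg5 knockout 1 member was called, where 11.4% of all genes were called, 4.94% higher and 6.42% lower: Adar responded less than in control (-0.31 ± 0.09, edgeR adjusted p = 0.037). Eif2ak2 had the same size (-0.31 ± 0.10) and an adjusted p of 0.052. The Adar call did not hold once control vehicle replicate 2 was left out (-0.19, adjusted p = 0.127), nor with a correction for transcript length (-0.17, adjusted p = 0.238) or a fit of the 4 groups alone (adjusted p = 0.104). It was also lost without control TNFα replicate 1 (adjusted p = 0.0983) or 2 (0.058), Atg5 knockout vehicle replicate 2 (0.0512) or 3 (0.0783), or Atg5 knockout TNFα replicate 1 (0.0608), 2 (0.0801) or 3 (0.0553). Between the double and the Atg5 knockout, 0 members differed in their response (edgeR, 0.00739% of all genes, 0 members at an unadjusted p under 0.05, DESeq2 0 of 10).

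Other genes of these pathways, in 5 lists, are described by their counts, to be read against all tested genes, of which 31.3% were higher and 30.7% lower in the Atg5 knockout and 25.3% and 27.2% in the double knockout. Of the cofactors and signalling genes of the RNA sensors, 22 of 24 were tested, and 11 were higher, 4 lower and 7 not called in the Atg5 knockout against control with vehicle, with a median log2 fold change of 0.23 against 0.01 over all genes. In the double knockout 13 were higher, 2 lower and 7 not called, with a median of 0.26. Irf7, the interferon regulatory factor that amplifies interferon output, was higher by 4.63 ± 0.26 and 5.70 ± 0.25, and the helicase Ddx60 by 4.35 ± 0.29 and 4.73 ± 0.28. Their counts summed to only 30 and 24 over the control vehicle libraries, which left little room for a lower call. Trim25, a ubiquitin ligase that promotes Ddx58 signalling, and Ddx58 went opposite ways between the 2 lines that lack Atg5. Trim25 was at 11.4, 10.4 and 12.2 CPM in control, 62.6, 56.9 and 62.7 CPM in the Atg5 knockout and 8.71, 10.8 and 9.45 CPM in the double knockout with vehicle. Its log2 difference was 2.42 ± 0.10 in the Atg5 knockout against control and -2.65 ± 0.10 (edgeR adjusted p = 2.7e-17) in the double against the Atg5 knockout, where Ddx58 differed by 0.62. Ikbke, a kinase related to Tbk1, differed by -0.99 ± 0.11 between the same 2 lines.

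Of the genes of DNA sensing and nucleic acid clearance, 17 of 18 were tested, and 4 were higher, 9 lower and 4 not called in the Atg5 knockout (median -0.20), and 5 were higher, 8 lower and 4 not called in the double knockout (median -0.10), against control. In the Rnf31 knockout against control 11 were higher and 2 lower, where 24.1% of all genes were higher and 21.5% lower. In the double against the Atg5 knockout 6 were higher, 0 lower and 11 not called. Of all genes, 18.2% were higher and 19.8% lower there, and 38.1% called. The lower genes included the ribonuclease H2 subunit Rnaseh2b (-0.66 ± 0.06 and -0.56 ± 0.06) and the lysosomal DNase Dnase2a (-0.83 ± 0.08 and -0.57 ± 0.08). The higher genes included the ubiquitin ligase Trim56 (1.32 ± 0.06 and 1.55 ± 0.06). Ifi204, a DNA-binding interferon-inducible protein, had 5 counts over the control vehicle libraries and 562 over the Atg5 knockout libraries, a 110.4-fold difference (95% counting interval 47.0 to 341). With 5 counts in control it had little room for a lower call. Trex1, the cytosolic DNA exonuclease, was higher by 0.83 ± 0.19 and 0.63 ± 0.20.

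Effectors that respond to double-stranded RNA were tested for 12 of 13 genes, and 11 were higher, 1 lower and 0 not called in the Atg5 knockout (median 1.98), with 11 higher, 0 lower and 1 not called in the double knockout (median 3.35). Among them Oas1b, Oas2 and Oasl2 had 14, 5 and 19 counts summed over the control vehicle libraries. Counts this low left little room for a lower call, so their higher calls add little to the number of genes. Oas1a and Oas1g, which make the activator of RNase L, were higher by 4.96 ± 0.12 and 5.48 ± 0.23 in the Atg5 knockout, though reads of such near-identical family members may have been divided between them. Ifit1 and Ifit3, which bind foreign RNA, were higher by 1.56 ± 0.11 and 2.19 ± 0.13 in the Atg5 knockout and by 2.95 ± 0.10 and 3.53 ± 0.13 in the double knockout. The lower gene was Ifit2 (-0.27 ± 0.05 in the Atg5 knockout), which was higher in the double knockout (0.38 ± 0.05). In the Rnf31 knockout against control, 2 of these 12 genes were higher, 2 lower and 8 not called (median 0.03). Of all genes, 24.1% were higher and 21.5% lower there. Ifit1 (0.499-fold) and Ifit3 (0.570-fold) were lower, and so was the member Ifih1, whose call held in 11 of 14 alternatives.

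Partners of Zbp1 in cell death and of Eif2ak2 in the stress response were tested for 9 of 10 genes, and 4 were higher, 2 lower and 3 not called both in the Atg5 knockout (median 0.01) and in the double knockout (median 0.08). A call for 6 of 9 is near the share of all genes called, 62.0% and 52.4%. Mlkl, the executor of necroptosis, was higher by 0.82 ± 0.06 and 0.93 ± 0.06, and Ppp1r15a, the phosphatase subunit that reverses eIF2 alpha phosphorylation, by 1.21 ± 0.07 and 0.96 ± 0.07. Eif2s1, which encodes the eIF2 alpha substrate, was lower (-0.56 ± 0.06 and -0.39 ± 0.06). Of the interferon output genes, 9 of 12 were tested, and 7 were higher, 1 lower and 1 not called in both lines, with medians of 2.70 in the Atg5 knockout and 3.34 in the double knockout. Irf9, a subunit of the factor that binds the ISRE, was higher by 2.70 ± 0.08 in the Atg5 knockout, Isg15, a ubiquitin-like modifier, by 3.20 ± 0.11 and the chemokine Cxcl10 by 3.25 ± 0.08 (3.55 ± 0.08 in the double knockout). The receptor chain Ifnar1 was the lower gene (-0.27 ± 0.05 and -0.22 ± 0.05). The other 3 genes of this list had no row. The interferon genes Ifnb1 and those of the Ifna family were not analysed here. With TNFα the tested genes of the 5 lists gave no call in control (0.0961% of all genes called), Atg5 knockout (0%) or double knockout cells (0.133%). In the Rnf31 knockout (1.17% of all genes called) they gave 2, Cxcl10 (0.78 ± 0.09) and Ccl5 (0.82 ± 0.19). Tested directly, 0 of the 9 interferon output genes differed in their TNFα response between the Rnf31 knockout and control. Of all genes 0.00739% were called there, so this count does not set these genes apart.

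**Figure D5:**
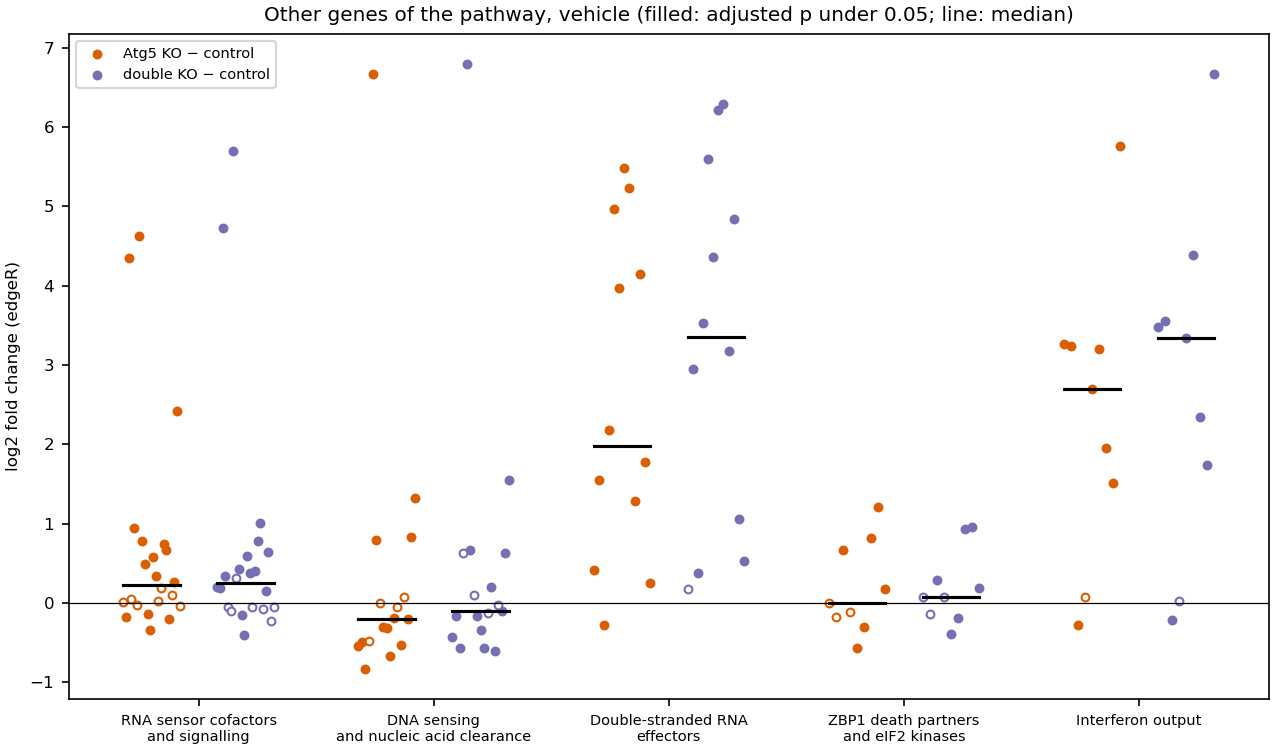
Log2 fold change of the tested genes of 5 pathway lists in the Atg5 and double knockouts against control with vehicle (points; filled where the edgeR adjusted p was under 0.05; horizontal lines are medians). Double-stranded RNA effectors and interferon output lie highest, with medians of 1.98 to 3.35, and the medians of the other 3 lists lie between -0.20 and 0.26.

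The profiles of the members over the 8 group means were set beside 10295 other genes at a mean of at least 2 CPM, as a description, since groups of one genotype share much of their profile. By Pearson's r of log2 CPM, the gene most like Ifih1 was Isg15 (r = 0.9952), that of Dhx58 was Pdlim1 (0.9984), that of Eif2ak2 was Irgm1 (0.9964) and that of Zbp1 was Tmem140 (0.9989). Adar was most like Cdipt (0.9964), Cgas like Fut8 (0.995), Mavs like Snd1 (0.9952), Sting1 like Sec61a2 (0.9811) and Tbk1 like Fam3a (0.9957). Such values are common in this design, for 364 genes reached an r of at least 0.95 with Ddx58 and 15 with Sting1. Within the group, Ddx58 and Eif2ak2 were each other's nearest member (0.9944), as were Cgas and Sting1 (0.815). The member least like Ddx58 was Mavs (-0.823), and the member least like Mavs was Dhx58 (-0.871).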

How the data were processed

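RNA-seq of 24 libraries in 8 groups was analysed from 1 table of expected counts per gene symbol, deposited by the authors and not normalized. Its unit was inferred from whole values with unequal totals and rows that share counts. Per the submitters' processing notes, the tools were STAR, RSEM and DESeq2, with the builds mm10 and GRCm38. The sources used here do not give versions, annotation or strand setting. Rounding changed 0 values, and a row with a blank name (0.14% of counts) was left out.

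edgeR 4.0.16 (R 4.3.3) was run with TMM scaling, filterByExpr by group (13527 genes kept, 2211 removed) and the quasi-likelihood test on 8 group means over all libraries, with Benjamini-Hochberg adjustment over all tested genes and calls at an adjusted p under 0.05. There were 13 comparisons. CPM are scaled to a common total with TMM factors. Few-count ratios have 95% exact counting intervals. Coordinates and lengths are from GENCODE M21 (GRCm38), and promoters from RefSeq (GRCm38.p6). The pattern AANNGAAA was added after the promoters were seen. Nearest genes are those with the highest r over group means, at 2 CPM or more.

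Members and lists were chosen with earlier results of these data known. All members are named. Listed genes are named where they are among the 4 with the smallest adjusted p of their list in a comparison, or make up a count of 5 or fewer (Ifit2, Ifnar1, Ccl5). Trex1 was named after its values were seen, and Oas1b, Oas2 and Oasl2 were named for their low control counts. On data simulated for the Atg5 knockout against control with vehicle (13034 genes), the test recovered 76 of 100 genes changed 1.5-fold and 84 of 100 changed 2-fold, with 9 false calls. For the TNFα response in control it recovered 73 and 83 (6 false calls). For the response difference of the double knockout from control it recovered 62 and 71 (5 false calls). The real Atg5 knockout comparison called 8393 genes, far more than were changed in a simulation, so its threshold differs from the simulated one. The real TNFα response in control called 13 genes, far fewer than were recovered in its simulation. Its threshold is therefore stricter than the simulated one, and the simulated recovery may overstate that of the real test. Alternatives were RLE factors, other filters, robust spread, DESeq2 1.42.0, a length correction, fits without the other groups, replicate number as a block, and each library left out in turn. A gene that the naming rule picks is not reported here.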

Additional observations from a re-analysis of the deposited data

Results flagged for a closer look

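The results below were picked out because the difference between 2 effects passed its own test (edgeR quasi-likelihood test, adjusted p under 0.05). The TNFα response of Adar was smaller in the Atg5 knockout than in control cells by a log2 difference of -0.31. It was the only member called in that comparison, where 11.4% of all genes were called. The call was lost in 10 of 20 alternatives, with -0.19 without control vehicle replicate 2 and -0.17 with the length correction. Relative to the sum of the 2 single knockouts with vehicle, the double knockout stood higher by 0.50 for Ddx58, 0.67 for Dhx58, 1.08 for Ifih1 and 0.44 for Sting1, and Mavs stood lower (-0.33). In that comparison 40.7% of all genes were called, a share near that of the members. The Ddx58 and Mavs departures lost their call when single libraries were left out, and the Ifih1, Dhx58 and Sting1 departures were called under every alternative run.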

How the results depend on the processing

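Of the results for single genes under the alternatives, 2044 stayed on the same side of the threshold in the same direction, 26 gained a call, 19 lost one and 0 reversed. The calls in the Atg5 and double knockouts against control were kept by the same number of members when any 1 library was left out (9 and 7). A filter at a mean of 1 CPM removed Zbp1 and left 9 members.

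Under settings that keep all libraries, the number of members called moved in these comparisons. For the Rnf31 knockout against control it was 3, and 2 in a fit of only the groups compared. For the Atg5 knockout against the control response it was 1, and 2 with a filter at 1 CPM, with robust spread and with DESeq2, and 0 with the length correction and with only the groups compared. For that of the double knockout it was 0, and 2 with DESeq2. For the departure from the sum it was 5, and 7 with the length correction. The filter at 1 CPM gave 8 and 6 for the Atg5 and double knockouts against control. With replicate numbers as a block, 6 members departed from the sum, 2 members were called for the Atg5 knockout response difference and 1 for that of the double knockout. The numbers share only a number: 84 pairs of libraries with the same number correlated at -0.10 to 0.08 in their deviations from group means (median 0.01, 0 pairs above 0.1), against a median of -0.01 for other pairs, and 13 of 24 libraries correlated best with their own number.

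Leaving out 1 library in turn gave 2 to 4 members called for the Rnf31 knockout against control, 7 for the double against the Atg5 knockout, 0 to 2 for the TNFα response in control and 0 for it in the other 3 genotypes. It gave 0 to 2 for the response differences of the Atg5 and of the double knockout from control, 0 for the other 2 differences and 4 to 7 for the departure from the sum. Depth limits Zbp1, which had at most 1 count per group in control and Rnf31 knockout cells.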
